A study of Mus musculus with 9 samples.

Results

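The genes described here encode 8 secreted cues and receptors of blood and lymphatic vessels, measured by RNA sequencing in embryonic mouse cardiac outflow tracts. They were taken by symbol from the deposited count tables, and all 8 of 8 were found among 48397 symbols: the chemokine gene Cxcl12 and its receptor genes Cxcr4 and Ackr3, the growth factor gene Vegfc, the peptide gene Apln and its receptor gene Aplnr, and the angiopoietin genes Angpt1 and Angpt2. The libraries came from outflow tracts of C57BL/6J embryos at embryonic day 12.5. The 5 deletion (HO) libraries were labelled Nkx2-5delta-enh/delta-enh, that is homozygous for loss of an enhancer of the cardiac transcription factor gene Nkx2-5 in the anterior second heart field. The 4 wild-type (WT) libraries were labelled Nkx2-5+/+, and the series describes the wild types as littermates. The labels name no Cre and no cell type to which the deletion is restricted, and they do not say whether each numbered sample is 1 embryo. The p-values therefore rest on sample-to-sample spread alone, part of which may be technical.

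CXCL12 draws cells that carry CXCR4, while ACKR3 binds the same ligand and removes it from the surroundings. In the developing heart this axis is known for guiding coronary vessels towards the aortic root. Apelin is made by sprouting endothelial tip cells and acts on the G protein-coupled receptor APLNR, VEGFC drives growth of lymphatic and coronary vessels through its receptors FLT4 and KDR, and ANGPT1 activates the endothelial receptor TEK (Tie2), on which ANGPT2 acts as a context-dependent antagonist.

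No library duplicated another. Each held 27707435 to 49094225 reads on genes, and 20606 to 22093 genes had at least 1 count. Nkx2-5, the gene whose enhancer was deleted, stood at 11.4 to 24.4 CPM (counts scaled by TMM-adjusted library size) in HO and at 18.8 to 45.0 CPM in WT, where the lowest, WT 1, lay inside the HO range. Outflow tract and second heart field markers, of which 9 of 9 were detected, summed to 1113 to 1336 CPM in HO and 824 to 1401 CPM in WT. Neuron and Schwann cell markers stood apart in HO 2, at 3374 CPM, with 112 to 186 CPM in each other library. WT 1 had the lowest cardiac muscle marker sum, 8092 CPM, with 11600 to 19450 CPM in the other libraries. It also had the highest cushion and fibroblast marker sum, 15760 CPM, with 9272 to 12060 CPM in the others. The part of this mix in the WT 1 values below was not tested. The deposited libraries also carry a number, which may stand for a litter, although no label says so. A first set (HO 1, HO 2, WT 1 and WT 2) shared 1 such number, a second set (HO 3, HO 4, WT 3 and WT 4) another, and HO 5 carried a number of its own. Counting HO 5 with the second set, where done below, is an assumption. Its share of reads not assigned to a gene, 22.61%, lay within the first set (22.26% to 23.52%) and above the second (20.65% to 21.28%). Its leukocyte marker sum, 119 CPM, lay within the second set (80.4 to 139 CPM) and below the first (241 to 408 CPM).

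Sequence upstream of the start sites is shown because the deleted enhancer serves a DNA-binding factor whose recognition element has the core AAGTG. RefSeq promoters of build GRCm38.p6 were matched for 5 of the 8 genes (Cxcl12, Cxcr4, Ackr3, Vegfc and Apln). In the 250 bases before the start site, AAGTG on either strand (CACTT on the other) occurred in 3 of these 5, once in Ackr3, once in Vegfc and at 2 places in Apln, and in 40.7% of 32851 promoters of that length. The core of the hypoxia response element, searched as ACGTG on both strands, occurred in 0 of the 5 and in 16.6% of all promoters. These are matches of letters in this window and say nothing of binding. The windows of Vegfc (chr8:54077282-54077531, plus strand) and of Apln (chrX:48034854-48035103, minus strand) follow, 5′ to 3′, with the matches in capitals.
Vegfc: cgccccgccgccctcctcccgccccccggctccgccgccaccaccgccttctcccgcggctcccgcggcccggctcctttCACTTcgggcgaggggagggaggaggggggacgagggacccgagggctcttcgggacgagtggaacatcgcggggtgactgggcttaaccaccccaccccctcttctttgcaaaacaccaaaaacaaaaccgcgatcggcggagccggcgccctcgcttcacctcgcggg
Apln: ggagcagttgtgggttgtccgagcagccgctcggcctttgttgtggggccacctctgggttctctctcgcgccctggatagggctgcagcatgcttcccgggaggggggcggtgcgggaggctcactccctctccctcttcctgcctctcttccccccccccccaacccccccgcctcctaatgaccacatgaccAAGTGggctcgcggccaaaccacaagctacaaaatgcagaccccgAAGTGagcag

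None of the 8 genes passed the test of HO against WT. With edgeR's quasi-likelihood test and Benjamini-Hochberg adjustment over 16522 genes at 0.05, 0 of 8 were called, against 0.0% of all genes tested. At an unadjusted p below 0.05 edgeR picked out 870 genes, or 5.27%, and none of the 8. DESeq2 called 0 of 8 (38 of all genes, 0.138%, and 69 with the replicate number as a block, 0.246%), and limma-voom with sample weights called 0 of 8 (4 of all genes, 0.0242%). In each of the 8, HO and WT values overlapped, as they did in all but 1.8% of genes tested (HO wholly above WT in 0.829% and wholly below in 0.974%). The intervals below come from a fit without the sets or the replicate numbers, so differences between sets count as spread in them. They were narrowest for Ackr3 and Cxcl12 and widest for Aplnr. With the replicate number as a block, none of the 8 was called either. No WT library shares the number of HO 5, so HO 5 adds nothing to the genotype difference in blocked fits. In simulated counts over 16522 genes with these group sizes, edgeR recovered 50% of genes changed 2-fold and 14% of those changed 1.5-fold. The changed genes were drawn at random and no difference between sets was simulated, so these shares are not those of the 8 genes.

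**Figure D1:**
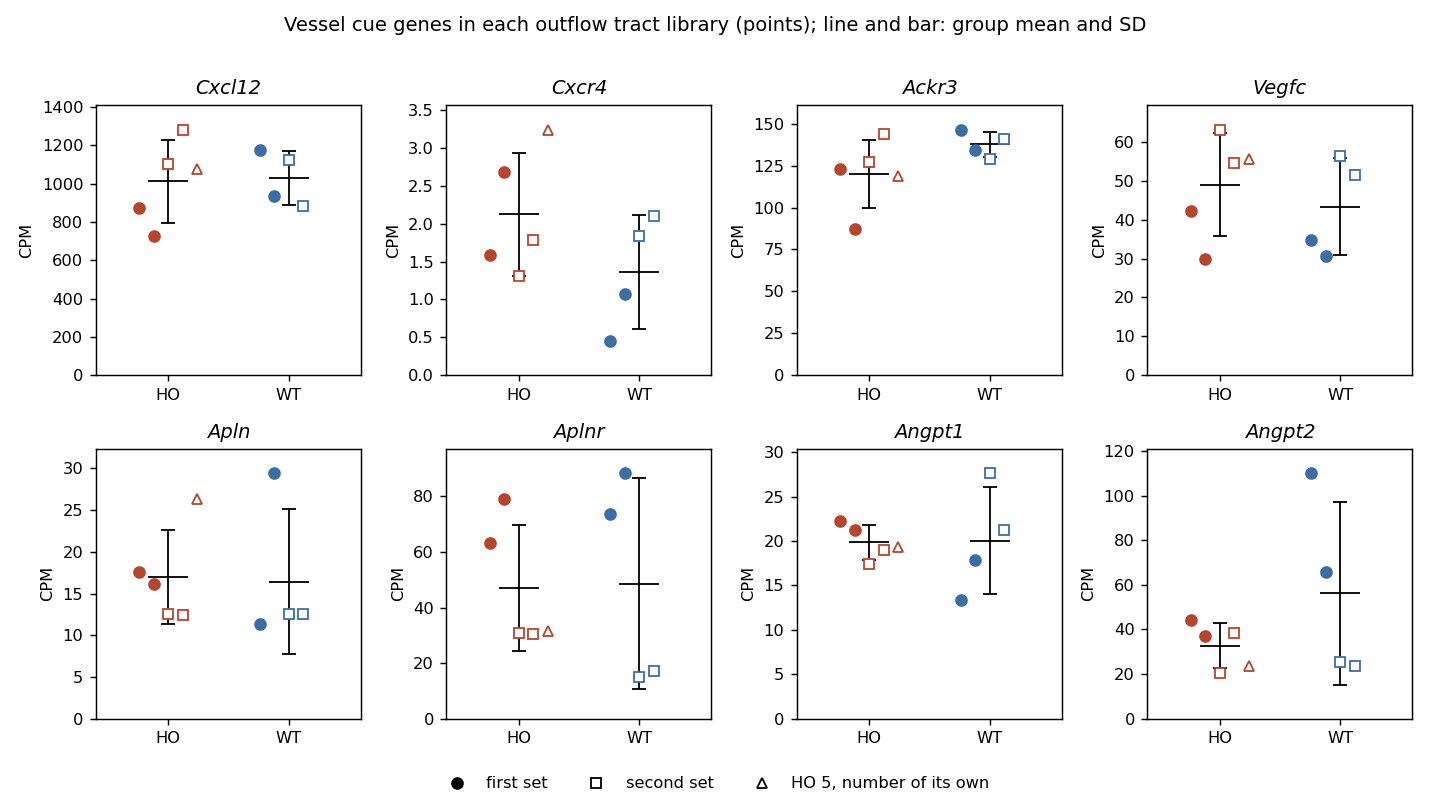
CPM of the 8 genes in each library, HO left and WT right, with the group mean and SD as a black line and bar; filled circles are the first set, open squares the second set and the open triangle HO 5. Aplnr lies at 63.3 CPM or more in the first set and at 31.4 CPM or less elsewhere, and HO and WT overlap in every panel.

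Levels were set side by side after division by exonic length, as CPM per kilobase of exon. That length takes in every exon of all annotated transcripts and may exceed that of the transcripts present. The order of the genes depends on it. Cxcl12 was the most abundant at 124.8 ± 21.5 (SD, n = 9 libraries), followed by Ackr3 at 38.2 ± 5.32, Vegfc at 19.0 ± 5.08, Aplnr at 12.9 ± 7.64, Angpt2 at 11.7 ± 7.81, Apln at 5.32 ± 2.12, Angpt1 at 3.83 ± 0.755 and Cxcr4 at 0.987 ± 0.463. Cxcl12 lay above Ackr3 and Ackr3 above Vegfc in all 9 libraries with no overlap of their ranges, and Angpt1 lay above Cxcr4 in the same way. The ranges of Vegfc, Aplnr, Angpt2, Apln and Angpt1 overlapped from each to the next. Vegfc exceeded Aplnr in 6 of 9 libraries and Aplnr exceeded Angpt2 in 5 of 9, so those neighbours could not be ordered over all libraries. Vegfc exceeded Aplnr in 5 of 5 libraries outside the first set and in 1 of 4 within it. Aplnr exceeded Angpt2 in 2 of 5 outside the first set and in 3 of 4 within it. Tek, the receptor of both angiopoietins, stood on the same scale at 55.7 ± 6.91 in HO and 51.4 ± 6.43 in WT, above either ligand.

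Cxcl12 (chromosome 6, 117168535 to 117181367, plus strand of mm10) was abundant in every library. It stood at 874, 724, 1105, 1282 and 1078 CPM in HO 1 to 5, against 1174, 938, 1123 and 885 CPM in WT 1 to 4. The lowest values were those of HO 1 and HO 2, and HO 4 was the highest of all. The log2 fold change of HO over WT was -0.02 (SE 0.17, 95% interval -0.39 to 0.34, edgeR adjusted p = 0.995). In the first set both HO libraries lay below both WT libraries, and 37.2% of all genes had HO and WT apart in one direction or the other there (20.0% with HO below). The log2 fold change was -0.39 (SE 0.21) in the first set, and in the second set with HO 5 it was 0.20 (SE 0.13) with overlapping values.

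Ackr3 (chromosome 1, 90203980 to 90216751, plus strand), which encodes the scavenging receptor, varied least among the WT libraries. HO 1 to 5 held 123, 87.5, 127, 144 and 119 CPM, against 146, 135, 129 and 141 CPM in WT 1 to 4. HO 2, the library with neuronal transcripts, was the lowest, and HO 4 lay inside the WT range. HO over WT was -0.20 on the log2 scale (SE 0.13, interval -0.48 to 0.09, edgeR adjusted p = 0.902). It was -0.40 (SE 0.21) in the first set and -0.05 (SE 0.11) in the second set with HO 5.

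Cxcr4 (chromosome 1, 128588199 to 128592293, minus strand), which encodes the signalling receptor, was near the limit of measurement with 16 to 122 reads per library. It stood at 1.59, 2.69, 1.31, 1.78 and 3.24 CPM in HO 1 to 5, against 0.445, 1.07, 1.83 and 2.11 CPM in WT 1 to 4. WT 1 was the lowest, with 16 reads and an exact Poisson 95% interval of 9.15 to 26.0 reads, which covers counting error alone. HO 5 was the highest, with 122 reads. HO over WT was 0.64 on the log2 scale (SE 0.47, interval -0.40 to 1.67, edgeR adjusted p = 0.914). In the first set it was 1.51 (SE 0.67, edgeR adjusted p = 0.708) with HO above WT, an order that 17.2% of all genes had there. In the second set with HO 5 it was 0.10 (SE 0.43) with overlap. CXCR4 is also a receptor of leukocytes, whose 12 markers summed to 116.5 to 282.5 CPM in HO and 80.4 to 408 CPM in WT. The highest leukocyte sums were those of WT 1 and WT 2, the libraries with the least Cxcr4, and their part in the Cxcr4 values was not tested.

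The ratio of Ackr3 to Cxcr4 was taken within a library, where library scaling enters only through the prior count of 2. It averaged 5.85 ± 0.707 on the log2 scale in HO and 6.81 ± 1.01 in WT (SD, n = 5 and 4). The difference was -0.96, and a two-sided exact permutation of the group labels gave p = 0.175 (0.704 after Benjamini-Hochberg adjustment over the 7 within-library values tested), where 0.0159 is the smallest p possible. The difference was -1.94 in the first set and -0.06 in the second set with HO 5. Without WT 1, the library with 16 Cxcr4 reads, it was -0.50.

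Vegfc (chromosome 8, 54077606 to 54187096, plus strand), the lymphangiogenic ligand gene, differed between the sets. HO 1 and HO 2 held 42.2 and 29.8 CPM, and HO 3 to 5 held 63.2, 54.6 and 55.6 CPM, against 34.7 and 30.8 CPM in WT 1 and WT 2 and 56.5 and 51.6 CPM in WT 3 and WT 4. Every library outside the first set lay above every library within it, an order that 7.41% of all genes had. Vegfc was higher in the second set than in the first by a log2 fold change of 0.72 (SE 0.12, edgeR adjusted p = 0.0121 with genotype in the fit). By genotype it was 0.18 (SE 0.24, interval -0.35 to 0.71, edgeR adjusted p = 0.948). Blocked on replicate number it was 0.12 (SE 0.093, interval -0.10 to 0.34, edgeR adjusted p = 0.902). Within sets HO over WT was 0.15 (SE 0.23) in the first set and 0.10 (SE 0.11) in the second with HO 5.

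Apln (X chromosome, 48025146 to 48034853, minus strand), the apelin gene, was high in 2 libraries, 1 of each genotype. It stood at 17.6, 16.1, 12.6, 12.5 and 26.3 CPM in HO 1 to 5, against 11.3, 29.4, 12.5 and 12.5 CPM in WT 1 to 4. HO 5 and WT 2 were high, and the other 7 libraries lay between 11.3 and 17.6 CPM. The log2 fold change was 0.05 (SE 0.32, interval -0.67 to 0.76, edgeR adjusted p = 0.995). Hypoxia response genes, a group to which apelin is often added, summed to 6725 CPM in HO 5, the highest of any library, and to 4763 CPM in WT 2, which lay within the range of the others (2958 to 5898 CPM); their part in the Apln values was not tested.

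Aplnr (chromosome 2, 85136225 to 85139923, plus strand), the apelin receptor gene, showed the widest split between the sets. It stood at 63.3 and 79.1 CPM in HO 1 and HO 2 and at 30.8, 30.6 and 31.4 CPM in HO 3 to 5, against 73.7 and 88.4 CPM in WT 1 and WT 2 and 15.1 and 17.2 CPM in WT 3 and WT 4. All 4 libraries of the first set lay above the other 5, an order that 5.79% of all genes had. Aplnr was lower in the second set by a log2 fold change of -1.77 (SE 0.22, edgeR adjusted p = 0.00583). Over all libraries the log2 fold change of HO over WT was -0.05 (SE 0.57, interval -1.32 to 1.23, edgeR adjusted p = 0.996). In the fit blocked on replicate number it was 0.36 (SE 0.24, interval -0.20 to 0.92, edgeR adjusted p = 0.899), so the sign turned and the interval narrowed, and neither fit passed.

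Within the second set the HO libraries held about the same Aplnr, and each held more than either WT library. With HO 5 counted there, HO stood at 30.95 CPM on average and WT at 16.15 CPM, a log2 fold change of 0.94 (SE 0.13, interval 0.64 to 1.24, n = 3 and 2). Its edgeR p was 9.04e-05 unadjusted and 0.112 adjusted over 16682 genes, so it did not pass. Placing HO 5 there is an assumption, and HO 3 and HO 4 alone averaged 30.71 CPM. Values that do not overlap, HO above WT, occurred in 11.3% of all genes in that set, and in either direction in 23.2%. Of the 8 genes, Aplnr and Angpt1 had an unadjusted edgeR p below 0.05 there, as did 5.54% of all genes. In the first set the log2 fold change was -0.17 (SE 0.19) with overlapping values. The interaction of genotype and set was 1.11 (SE 0.22) with an edgeR p of 9.85e-04 unadjusted and 0.320 adjusted, or 0.175 adjusted with HO 5 counted in the second set.

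Pan-endothelial markers, 14 genes such as Pecam1 and Cdh5, also had higher sums in HO than in WT in the second set with HO 5, and their part in the Aplnr values there was not tested. They summed to 622, 697 and 584 CPM in HO 3 to 5, against 580 and 534 CPM in WT 3 and WT 4, and to 717 and 752.5 CPM in HO 1 and HO 2, against 688 and 809 CPM in WT 1 and WT 2. Across the sets 5 of the 14 were called lower in the second, and 4.17% of all genes were. Relative to the mean log2 CPM of these markers, Aplnr averaged 0.04 in HO and -0.71 in WT in the second set with HO 5, and 0.90 in HO and 1.07 in WT in the first. Over all 9 libraries the difference in this relative value was 0.20 (exact two-sided permutation p = 0.746, adjusted 0.873). In bulk tissue, fewer cells of a type and less RNA per cell cannot be told apart.

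Angpt1 (chromosome 15, 42424723 to 42676977, minus strand), the agonist ligand gene, had a narrow range in HO and a wide one in WT. It stood at 22.3, 21.3, 17.4, 19.0 and 19.3 CPM in HO 1 to 5, against 13.4, 17.9, 27.6 and 21.3 CPM in WT 1 to 4. HO values kept within 17.4 to 22.3 CPM, and the WT values spread to both sides of them. The overall log2 fold change was -0.01 (SE 0.19, interval -0.43 to 0.40, edgeR adjusted p = 0.997). It was 0.50 (SE 0.23, edgeR adjusted p = 0.725) in the first set, where HO lay above WT, as in 17.2% of all genes. In the second with HO 5 it was -0.40 (SE 0.16, edgeR adjusted p = 0.860), where HO lay below WT, as in 11.8% of all genes.

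Angpt2 (chromosome 8, 18690263 to 18741562, minus strand), the context-dependent antagonist gene, was high in both WT libraries of the first set. It stood at 44.1, 37.1, 20.5, 38.4 and 23.8 CPM in HO 1 to 5, against 110, 65.8, 25.3 and 23.5 CPM in WT 1 to 4. WT 3 and WT 4 lay within the HO range. The log2 fold change was -0.78 (SE 0.45, interval -1.78 to 0.23, edgeR adjusted p = 0.901). This size rested largely on WT 1, without which it was -0.22, and it was -0.45 with the replicate number as a block and -0.09 with limma-voom sample weights. It was -1.10 (SE 0.28) in the first set, with an edgeR p of 0.00885 unadjusted and 0.537 adjusted, and 0.18 (SE 0.25) in the second with HO 5. It was the 1 gene of the 8 with an unadjusted edgeR p below 0.05 in the first set, where 7.16% of all genes had one. Angpt2 lies within Mcph1, a gene on the opposite strand, and the strand setting of the counting is not given, so its counts could hold Mcph1 reads. Mcph1 held 17.8 to 30.5 CPM in HO and 21.6 to 31.5 CPM in WT, with 21.6 CPM in WT 1, where Angpt2 was highest.

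The log2 ratio of Angpt2 to Angpt1 within a library showed the same split. It was 0.98, 0.80, 0.24, 1.02 and 0.30 in HO 1 to 5, against 3.04, 1.87, -0.13 and 0.14 in WT 1 to 4. WT 1 and WT 2 lay above all HO libraries, and WT 3 and WT 4 lay below all of them. The mean was 0.67 ± 0.372 in HO and 1.23 ± 1.495 in WT (SD, n = 5 and 4), a difference of -0.56 (exact two-sided permutation p = 0.492, adjusted 0.861). It was -1.57 in the first set and 0.51 in the second with HO 5. The log2 ratio of Aplnr to Apln differed by 0.14 (exact two-sided permutation p = 0.873, adjusted 0.873). Relative to the pan-endothelial mean, Cxcr4 differed by 0.69 (exact permutation p = 0.302, adjusted 0.704), Apln by 0.06 (exact permutation p = 0.825, adjusted 0.873) and Angpt2 by -0.59 (exact permutation p = 0.206, adjusted 0.704). Without WT 1 the relative value differed by 0.21 for Cxcr4 and by -0.21 for Angpt2, and in the second set with HO 5 by -0.18 for Cxcr4 and by -0.059 for Angpt2.

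**Figure D2:**
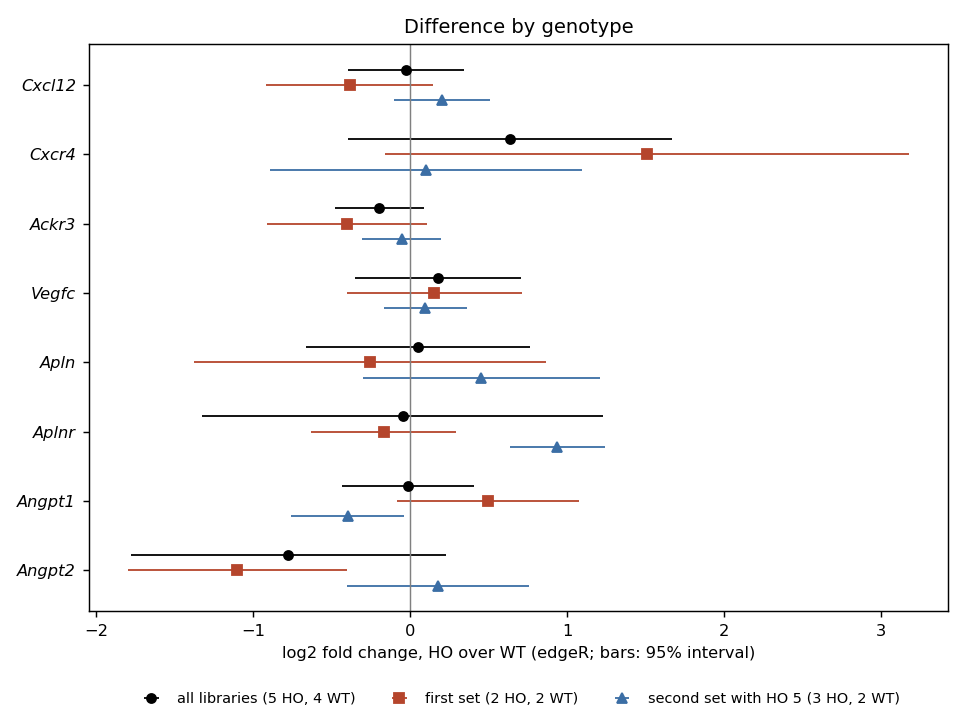
Log2 fold change of HO over WT for the 8 genes with 95% intervals, from edgeR over all 9 libraries (black), the first set (red squares, 2 HO and 2 WT) and the second set with HO 5 (blue triangles, 3 HO and 2 WT). Intervals over all libraries cross 0 for all 8 genes, Aplnr in the second set lies at 0.94, and Angpt1 lies at 0.50 in the first set and -0.40 in the second.

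The sets were then compared directly. Of the 8 genes, 2 were called between the sets with genotype in the fit, Vegfc higher and Aplnr lower in the second, which is 1 of 8 each way against 5.48% and 4.17% of all genes tested (9.65% both ways). Angpt2 was at -1.16 (SE 0.34, edgeR adjusted p = 0.0663) and did not pass. With HO 5 counted in the second set Angpt2 was called as well, at -1.16 (SE 0.30, edgeR adjusted p = 0.0407), with 9.84% of all genes called, 5.34% higher and 4.49% lower. Apln was at -0.57 (SE 0.26, edgeR adjusted p = 0.193). Macrophage and leukocyte markers also differed between the sets, with 9 of 12 called lower in the second, where they summed to 80.4 to 139 CPM, against 241 to 408 CPM in the first. Endocardial markers had 4 of 6 called higher in the second set, where they summed to 577.5 to 638 CPM, against 233 to 386 CPM in the first. Much of that sum was Hapln1, at 288 to 330 CPM in the second set and 36.3 to 160 CPM in the first. Npr3 (-0.22) and Cytl1 (-1.35) were lower in the second set and were not called. Cushion and fibroblast markers had 3 of 8 called higher and 1 lower. Erythroid markers had 1 of 10 called lower, Hbb-bs (-4.34, edgeR adjusted p = 0.0221). It stood at 321 and 271 CPM in HO 1 and HO 2 and at 1267 and 1688 CPM in WT 1 and WT 2. In the second set and HO 5 it stood at 16.8 to 68.5 CPM. Another globin gene, Hbb-bh1, was higher in the second set (2.43, edgeR adjusted p = 0.0723) and was not called. The part of these lists in the Aplnr, Angpt2 and Vegfc values was not tested.

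The genotype difference itself was compared between the sets by an interaction term. Of the 8 genes, 5 had an unadjusted edgeR p under 0.05 for the interaction, against 8.15% of 16303 genes, and 0 passed after adjustment, against 0.0123%. These were Cxcl12 (log2 0.65, SE 0.26), Cxcr4 (-1.84, SE 0.78), Aplnr (1.11, SE 0.22), Angpt1 (-0.91, SE 0.29) and Angpt2 (1.39, SE 0.45), with edgeR adjusted p between 0.320 and 0.603. A positive value means that HO over WT was greater in the second set. With HO 5 counted in the second set, Cxcr4 was no longer among them and 4 of 8 met that limit, against 7.35% of all genes, with 0 of 8 past the adjusted threshold, against 0.0605%. Each set holds 2 libraries per genotype.

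**Figure D3:**
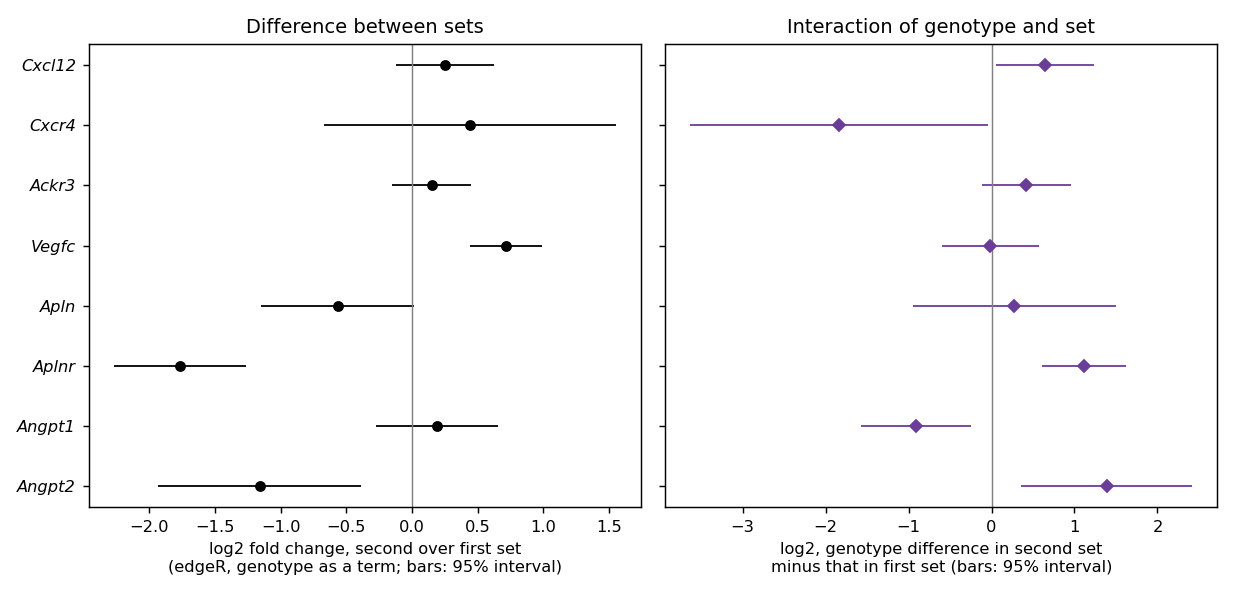
Left, log2 fold change of the second over the first set with genotype in the fit; right, the genotype difference (HO over WT) in the second set minus that in the first, both from edgeR with 95% intervals. On the left Vegfc lies at 0.72 and Aplnr at -1.77, and on the right the intervals of Cxcl12, Cxcr4, Aplnr, Angpt1 and Angpt2 leave out 0.

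Other genes of the 4 pathways were described from lists. No gene of these lists was called between HO and WT by edgeR. Among the VEGF ligands, receptors and processing genes, 6 of 12 tested lay above 0 and 6 below. Their median log2 fold change was -0.03, against 0.0029 over all genes. An unadjusted edgeR p under 0.05 was found for 2 of the 12, against 5.27% of all genes. These 2 were Nrp2 and Adamts14. Nrp2, which encodes a co-receptor for VEGFC on veins and lymphatic vessels, stood at 45.9, 54.8, 41.7, 50.8 and 34.6 CPM in HO 1 to 5, against 90.8, 96.9, 58.0 and 55.1 CPM in WT 1 to 4. Each HO library lay below each WT library, although HO 2 and WT 4 were close, and 0.974% of all genes had HO below WT without overlap. The log2 fold change was -0.72 (SE 0.20, interval -1.16 to -0.29) with an edgeR p of 0.00379 unadjusted and 0.896 adjusted. DESeq2 gave an adjusted p of 0.159, 0.0716 with the replicate number as a block and 0.0549 without HO 2.

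The ligand, receptor and processing genes named next did not pass the test. Kdr, the main endothelial VEGF receptor gene, stood at 96.4 to 118.0 CPM in HO and 71.1 to 127 CPM in WT, a log2 fold change of 0.26 (SE 0.16, edgeR adjusted p = 0.901). Flt4, the lymphatic VEGFC receptor gene, stood at 33.5 ± 4.49 CPM in HO and 40.9 ± 15.5 CPM in WT (SD, n = 5 and 4), a log2 fold change of -0.29 (SE 0.23, edgeR adjusted p = 0.926). Vegfa, the principal endothelial growth factor gene, was at 0.31 (SE 0.15, edgeR adjusted p = 0.896). Ccbe1, whose product is needed for processing of VEGFC, was at -0.70 (SE 0.41, edgeR adjusted p = 0.901), with 11.6 and 10.1 CPM in WT 1 and WT 2 and 2.98 to 6.99 CPM in the remaining 7 libraries.

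In the angiopoietin and Tie list, 2 of 7 tested genes lay above 0 and 5 below, with a median of -0.06 and 0 at an unadjusted p under 0.05. The receptor gene Tek stood at 262 ± 32.6 CPM in HO and 242 ± 30.3 CPM in WT, a log2 fold change of 0.12 (SE 0.12, edgeR adjusted p = 0.941). Tie1, which encodes its partner receptor, was at -0.15 (SE 0.14, edgeR adjusted p = 0.939). Apela, which encodes the second ligand of the apelin receptor, stood at 26.9, 8.62, 16.3, 15.1 and 21.4 CPM in HO 1 to 5, against 26.8, 33.6, 19.2 and 24.1 CPM in WT 1 to 4, and its log2 fold change was -0.55 (SE 0.29, edgeR adjusted p = 0.896). HO 2 was the lowest, and the groups overlapped. In the chemokine list, 6 of 9 tested genes lay above 0 with a median of 0.07, and Cxcl9, Cxcl11 and Ccl21a had no read in any library.

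Vessel cell markers gave the following counts. All 8 of 8 tip and sprouting endothelium genes had log2 fold changes above 0, as did 50.6% of all genes, with a median of 0.36. An unadjusted edgeR p under 0.05 was found for 4 of 8, against 5.27% of all genes: Esm1 (1.04, SE 0.41), Kcne3 (0.75, SE 0.32), Pdgfb (0.56, SE 0.24) and Igfbp3 (0.47, SE 0.20), with an edgeR adjusted p of 0.896 each. Kcne3 was at 60.5 CPM in HO 5 and 11.35 to 28.8 CPM in the other libraries. Pdgfb was at 15.2 CPM in HO 2 and 4.67 to 9.99 CPM in the others. Esm1 was low throughout, at 0.93 to 6.96 CPM. The summed level of the 8 was 259 to 310 CPM in HO and 190 to 245 CPM in WT, without overlap, and Igfbp3 and Unc5b made up most of it. HO lay wholly above WT in 0.829% of single genes, but no such share was counted for sums of 8 genes. The lists were chosen with earlier results of these data known, so these counts are not independent support. Apln, which tip cells make, and Angpt2 were not on this list, and lay at 0.05 and -0.78. The other vessel lists had 9 of 14 members above 0 for pan-endothelial genes (median 0.06), 1 of 6 for arterial (-0.14), 2 of 4 for venous (-0.06), 1 of 6 for lymphatic (-0.28), 4 of 6 for endocardial (0.13) and 2 of 7 for pericyte and mural genes (-0.18). Summed levels of each of these 6 overlapped between HO and WT.

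Markers of other cells in the tissue gave these counts by the same measures. Of all genes tested, 5.27% had an unadjusted edgeR p under 0.05, and the share above 0 is given with the tip and sprouting genes. These lists too were chosen with earlier results of these data known, so their counts are not independent support. Smooth muscle genes had 0 of 7 above 0 (median -0.34) and 5 of 7 at an unadjusted p under 0.05, epicardial and mesothelial genes 1 of 8 (-0.55) and 4 of 8, and cardiac muscle genes 0 of 10 (-0.24) and 0 of 10. Outflow tract and second heart field genes had 4 of 9 above 0 (-0.12) and 6 of 9 at an unadjusted p under 0.05, and cushion and fibroblast genes 5 of 8 (0.36) and 2 of 8. Hypoxia response genes had 11 of 13 above 0 (0.17) and 1 of 13 at that limit, leukocyte genes 1 of 12 (-0.46) and 0 of 12, and erythroid genes 2 of 10 (-1.07) and 0 of 10. Neuron and Schwann cell genes had 11 of 13 above 0 (2.43) and 4 of 13 at that limit, with HO 2 far above the rest, and foregut and lung genes 3 of 3 tested (0.76) and 0 of 3. Summed levels of each of these lists overlapped between HO and WT, and their part in the values of the 8 genes was not tested.

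**Figure D4:**
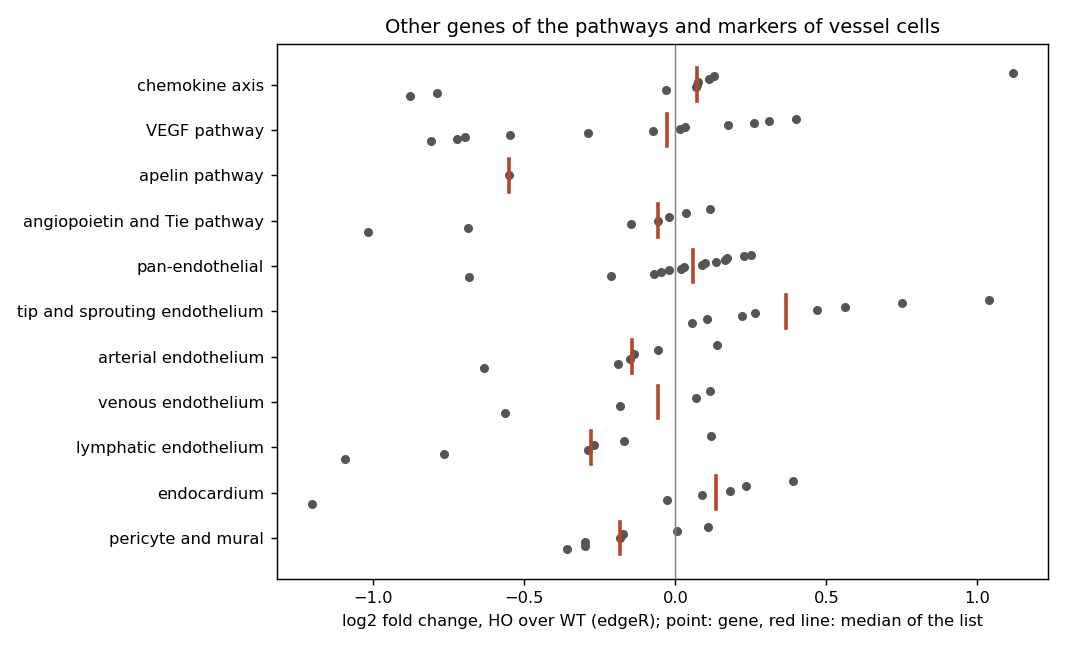
Log2 fold change of HO over WT (edgeR, 9 libraries) for each tested gene of 4 pathway lists and 7 vessel marker lists, with the list median as a red line. The 8 tip and sprouting genes listed, which leave out Apln and Angpt2, all lie above 0 with a median of 0.36. No gene shown passed the adjusted threshold, and the lists were chosen with earlier results of these data known.

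The genes closest to 7 of the members across the 9 libraries were found by the root mean square difference of mean-centred log2 CPM profiles among 9968 genes of at least 10 CPM. Aplnr was closest to Cav1 (0.29) and Ifi27 (0.30), beside its own spread of 0.90. Cav1, the caveolin gene of endothelium and other cells, stood at 457, 502, 144, 189 and 174 CPM in HO 1 to 5, against 708.5, 512.5, 122 and 126.3 CPM in WT 1 to 4. Like Aplnr, it was higher in every library of the first set. Angpt2 was closest to Gfra1 (0.17) and Gxylt2 (0.17), beside its own spread of 0.75. Gfra1, a co-receptor gene for GDNF, stood at 61.4, 57.6, 38.9, 57.4 and 29.8 CPM in HO 1 to 5, against 151, 108, 36.1 and 38.5 CPM in WT 1 to 4.

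The nearest genes of the others were Gk5 (0.04) and Haus7 (0.07) for Vegfc, Eva1b (0.04) and Rcn3 (0.05) for Ackr3, and Efemp2 (0.09) and Sec24d (0.09) for Cxcl12. Distances were larger for Apln, with Atcayos (0.23) and 1500011K16Rik (0.24), and for Cxcr4, with Tfrc (0.41) and Tmem229b (0.44). The spread of the genes themselves was 0.39 for Vegfc, 0.21 for Ackr3, 0.24 for Cxcl12, 0.48 for Apln and 0.75 for Cxcr4, so a small distance means little for the genes that vary little.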

How the data were processed

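RNA of dissected tissue was extracted on columns and sequenced after low-input SMART-Seq preparation, per the labels' protocols. Raw read counts were deposited per gene symbol in 1 file per library. The submitters' processing notes name STAR 2.5.0c, Picard, HTSeq 0.6.0, DESeq2 and mm10, and neither annotation nor strand setting is given there. The 5 rows that name no gene (20.6% to 23.5% of reads) were left out.

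Libraries were grouped by title. Counts were tested over all genes by the quasi-likelihood test of edgeR 4.0.16 (R 4.3.3; TMM factors, robust dispersion, filterByExpr at a minimum count of 10), two-sided, with a Benjamini-Hochberg threshold of 0.05. Log2 CPM used a prior count of 2. DESeq2 1.42.0, limma 3.58.1, other filters and normalization, set as a term, fits within sets and leaving out each library were alternatives. Sets come from a number in the deposited names, read as a possible litter by assumption. Exonic lengths and coordinates are from GENCODE M21 (mm10), which matched 46394 of the 48397 symbols and all 8 members.

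Deviations of same-numbered HO and WT libraries correlated at 0.242, 0.137, 0.227 and 0.176, and the replicate number was used as a block in alternative fits. WT 2 correlated best with HO 1, WT 4 with HO 5 and HO 2 with WT 1, and the mean correlation was 0.193 within a set and -0.196 between sets. Deviations were taken from the mean of each genotype, so a positive mean within sets brings a negative one between them. The correlations do not tell pairing by replicate number from membership of a set. The members and gene lists were chosen with earlier results of these data known. The genes named besides the members were Nkx2-5, 8 pathway genes given whatever their p, genes past the test, and the 2 nearest profiles per member (those of Angpt1 are not reported here); Adamts14, Mcph1 and single marker genes were named after their values were seen. The fitting was tested on simulated data.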

Additional observations from a re-analysis of the deposited data

Results flagged for a closer look

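Apln in WT 2, at 29.4 CPM, lay far above the other 3 WT libraries, which held 11.3 to 12.5 CPM. Relative to the pan-endothelial mean, Apln in HO 5 was at -0.11 on the log2 scale, far above the other 4 HO libraries. Of the 30 groups of values examined this way 2 were picked out, and chance picks about 1 in 20.

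Cxcr4 and Angpt1 were picked out because HO and WT lay apart in opposite directions in the second and the first set, taking the 2 libraries per genotype of each. The interaction of genotype and set was -1.84 on the log2 scale for Cxcr4 (edgeR adjusted p = 0.603) and -0.91 for Angpt1 (edgeR adjusted p = 0.498), so neither difference passed the test. HO and WT did not overlap in either direction in 37.2% of all genes in the first set and in 23.2% in the second with HO 5. The share of all genes apart in opposite directions in the sets was not counted. With HO 5 counted in the second set, Cxcr4 values overlapped there.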

How the results depend on the processing

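None of the 8 members was called by HO against WT in any of the 21 alternatives. The smallest adjusted p was 0.112, for Aplnr in the second set with HO 5. The count over all genes was 0 with edgeR, 38 with DESeq2, 4 with limma-voom, 1 at most on leaving out a library (0 to 1, the 1 without WT 3), and, in fits added after the data were seen, 69 with DESeq2 and the replicate block and 65 with DESeq2 without HO 2. The replicate block changed no member's call. Ackr3, Cxcr4, Vegfc, Nrp2, Kdr, Tek, Vegfa, Ccbe1 and Apela kept their direction in all 21.

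Signs turned for 5 of the 8 members, and the cause was not tested. Cxcl12 was at 0.068 with limma-voom, 0.20 in the second set with HO 5, 0.077 with DESeq2 without HO 2, and -0.12 to 0.076 on leaving out single libraries. Apln was at -0.058 with the replicate block, -0.053 with DESeq2 and the block, -0.14 with set as a term, -0.25 in the first set, and -0.16 to 0.49 on leaving out single libraries. Aplnr was at 0.76 with limma-voom, 0.36 with the replicate block, 0.37 with DESeq2 and the block, 0.36 with set as a term, 0.41 with HO 5 counted in the second set, 0.94 in the second set with HO 5, and -0.33 to 0.41 on leaving out single libraries. Angpt1 was at 0.037 with the replicate block, 0.043 with DESeq2 and the block, 0.024 with set as a term, 0.50 in the first set, and -0.17 to 0.19 on leaving out single libraries. Angpt2 ranged from -1.02 to -0.22 on leaving out single libraries (-0.22 without WT 1) and was at -0.45 with the replicate block and -0.088 with limma-voom. Angpt2 was at 0.18, Flt4 at 0.19 and Tie1 at 0.065 in the second set with HO 5, and Flt4 was at 0.036 with limma-voom.

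The ratio of Angpt2 to Angpt1 differed by 0.51 in the second set with HO 5 and by -1.02 to 0.039 on leaving out single libraries, and that of Ackr3 to Cxcr4 by -1.94 in the first set and -0.058 in the second, and by -1.22 to -0.50 on leaving out single libraries. On leaving out single libraries Aplnr to Apln differed by -0.19 to 0.63. Relative to the pan-endothelial mean, Apln differed by -0.16 in the paired fit (replicate block) and -0.16 to 0.25, Aplnr by -0.14 to 0.50, Cxcr4 by 0.21 to 1.07 and Angpt2 by -0.80 to -0.21, on leaving out single libraries. The members called between the sets numbered 2, and 3 with HO 5 counted in the second set. Depth limits Cxcr4, with 16 to 122 reads per library.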
